A study of Rattus norvegicus with 16 samples.

Results

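The cholesterol genes described here are 8 genes of cholesterol synthesis and of its control among the 19776 gene names on the array, followed in the stomach and the middle intestine of suckling rats. They were taken by name: Hmgcs1, Idi1, Fdft1, Sqle, Lss and Cyp51, which encode enzymes of the pathway, and Srebf2 and Insig1, which encode parts of its control. Each gene had 1 probe, and all 8 probes were among the 21174 of 30367 probes that were kept and tested. In the rn4 build, which the array design names, the probes lie at chr2:51754514-51754573 (plus strand) for Hmgcs1, chr17:72557223-72557282 (minus strand) for Idi1, chr15:42425389-42425448 (minus strand) for Fdft1, chr7:96111693-96111752 (plus strand) for Sqle, chr20:12507646-12507705 (minus strand) for Lss, chr4:26771049-26771108 (plus strand) for Cyp51, chr7:120580150-120580209 (plus strand) for Srebf2 and chr4:2578292-2578348 (minus strand) for Insig1. The animals were Wistar rats born to Wistar Han parents, and were saline-treated (C) or obestatin-treated (OH). Obestatin is a peptide that is cut from the same precursor as ghrelin, and OH rats got 250 nmol/kg BW of it by oral gavage 2 times daily, as C rats got saline, between days 14 and 21 of life. Both tissues were taken from both treatments, with 4 arrays for each of the 4 combinations. Tissue RNA carried Cy5 on each two-colour array, and Cy3 marked a reference, the same pool of RNA from all rats. The value used throughout is the log2 ratio of Cy5 to Cy3, so that 0 is the level of the pool.

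Cholesterol is built from acetyl-CoA through mevalonate, isoprenoid units and squalene to lanosterol, which is then trimmed to cholesterol. Hmgcs1 makes the precursor of mevalonate, Idi1 interconverts the isoprenoid units, and Fdft1 joins chains built from these units into squalene. Sqle oxidises squalene, Lss closes the product to lanosterol, and Cyp51 removes a methyl group from lanosterol. Srebf2 encodes the transcription factor that switches these genes on when sterols are low, and Insig1, itself a target of that factor, holds it back in the endoplasmic reticulum when sterols are plentiful. The small intestine both makes cholesterol and takes it up from the diet, and in sucklings the diet is milk.

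Promoter sequences are shown because the factor encoded by Srebf2 acts on promoters together with partner factors that bind CCAAT and GC boxes. RefSeq promoters of the GRCr8 assembly were matched by symbol for 6 of the 8 genes, and the 250 bases before each start were searched on both strands. The motifs were TCACNCCA, the core of a sterol response element, CCAAT, and GGGCGG, which do not overlap one another in the matches found. In the sequences below, written 5′ to 3′ on the strand of the gene, capitals mark every match. They lie at chr7:115543057-115543306 on the plus strand for Srebf2, at chr2:53382054-53382303 on the plus strand for Hmgcs1, at chr4:8057770-8058019 on the minus strand for Insig1 and at chr4:30991443-30991692 on the plus strand for Cyp51.
Srebf2: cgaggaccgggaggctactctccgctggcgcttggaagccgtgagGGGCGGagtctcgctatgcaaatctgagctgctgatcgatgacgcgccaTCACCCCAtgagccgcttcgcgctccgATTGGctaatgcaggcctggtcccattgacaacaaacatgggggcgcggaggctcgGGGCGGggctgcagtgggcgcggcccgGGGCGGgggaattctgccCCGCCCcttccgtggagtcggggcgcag
Hmgcs1: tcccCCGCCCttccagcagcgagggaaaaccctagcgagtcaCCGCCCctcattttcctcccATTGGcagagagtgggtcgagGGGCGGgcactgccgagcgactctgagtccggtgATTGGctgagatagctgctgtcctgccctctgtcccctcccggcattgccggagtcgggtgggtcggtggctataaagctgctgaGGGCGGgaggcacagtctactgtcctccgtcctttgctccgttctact
Insig1: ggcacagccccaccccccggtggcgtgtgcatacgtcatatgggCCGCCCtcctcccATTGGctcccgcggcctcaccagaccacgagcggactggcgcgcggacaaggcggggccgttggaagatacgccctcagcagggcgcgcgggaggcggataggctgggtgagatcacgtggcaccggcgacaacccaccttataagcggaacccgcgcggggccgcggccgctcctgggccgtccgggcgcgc
Cyp51: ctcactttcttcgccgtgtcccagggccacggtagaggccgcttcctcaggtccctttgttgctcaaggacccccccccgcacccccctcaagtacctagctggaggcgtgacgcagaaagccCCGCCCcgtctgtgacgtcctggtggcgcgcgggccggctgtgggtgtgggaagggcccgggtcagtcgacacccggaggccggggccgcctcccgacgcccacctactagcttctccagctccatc
CCAAT was found in 5 of the 6 promoters, all but that of Cyp51, beside 34% of 33469 promoters of the same length. GGGCGG was found in 5 of the 6, all but that of Idi1, beside 30.5% of all promoters. TCACNCCA was found in Srebf2 alone, once, 156 to 149 bases before the start, beside 3.24% of all promoters. A match is a description of letters in a window and says nothing of binding.

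The arrays were checked before the genes were compared. The tissue labels held: the mean log2 ratio of 10 glandular stomach genes (of 12 listed) was 2.25 to 3.32 on the stomach arrays and -4.36 to -3.70 on the intestine arrays, and that of 12 enterocyte genes (of 13 listed) was -3.30 to -3.08 and -0.89 to 1.03. The mean of 5 hepatocyte genes (of 7 listed) was -4.84 to -4.20 over all arrays, so for these genes the pool lay above both tissues. Which tissues went into the pool is not stated in the methods. In each of 3 groups 1 array stood apart. C stomach replicate 2 had a mean of -1.19 over 11 striated muscle genes against 3.17 to 3.80 on the other C stomach arrays, and OH middle intestine replicate 4 had a mean of -1.54 over 7 pancreas genes against -3.66 to -3.36. OH stomach replicate 2 had a mean of -1.55 over 4 adipocyte genes (of 6 listed) against 0.51 to 0.86. There were 4 slides, 1 for each combination of tissue and treatment, and the 2 scan days separated OH from C. Slide and scan day therefore cannot be told apart from treatment, and within a treatment slide cannot be told apart from tissue. By the methods each treatment was given to 4 litters, so litter too goes with treatment. The labels do not give the litter of an array, and arrays of a group may come from littermates. The median raw Cy5 signal was 163 to 328 and that of Cy3 was 341 to 399 on OH arrays and 188 to 195 on C arrays. The labels do not say whether stomach and intestine came from the same rats. The methods name 4 rats per group and both tissues, but also 1 specific rat per array. The tissues were compared without pairing, and the p-values measure the spread between these arrays.

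In C rats all 8 genes were higher in stomach than in middle intestine. All 8 passed the test (limma over 21174 probes, Benjamini-Hochberg adjusted p under 0.05), where 22.7% of all probes were called higher in stomach. The log2 differences ran from 0.63 for Lss to 2.06 for Insig1, with a median of 1.33. For each of the 8 genes every C stomach array was above every C middle intestine array, which was the case for 21.6% of all probes. These are whole-tissue samples, in which fewer cells of a type and less RNA per cell cannot be told apart.

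**Figure D1:**
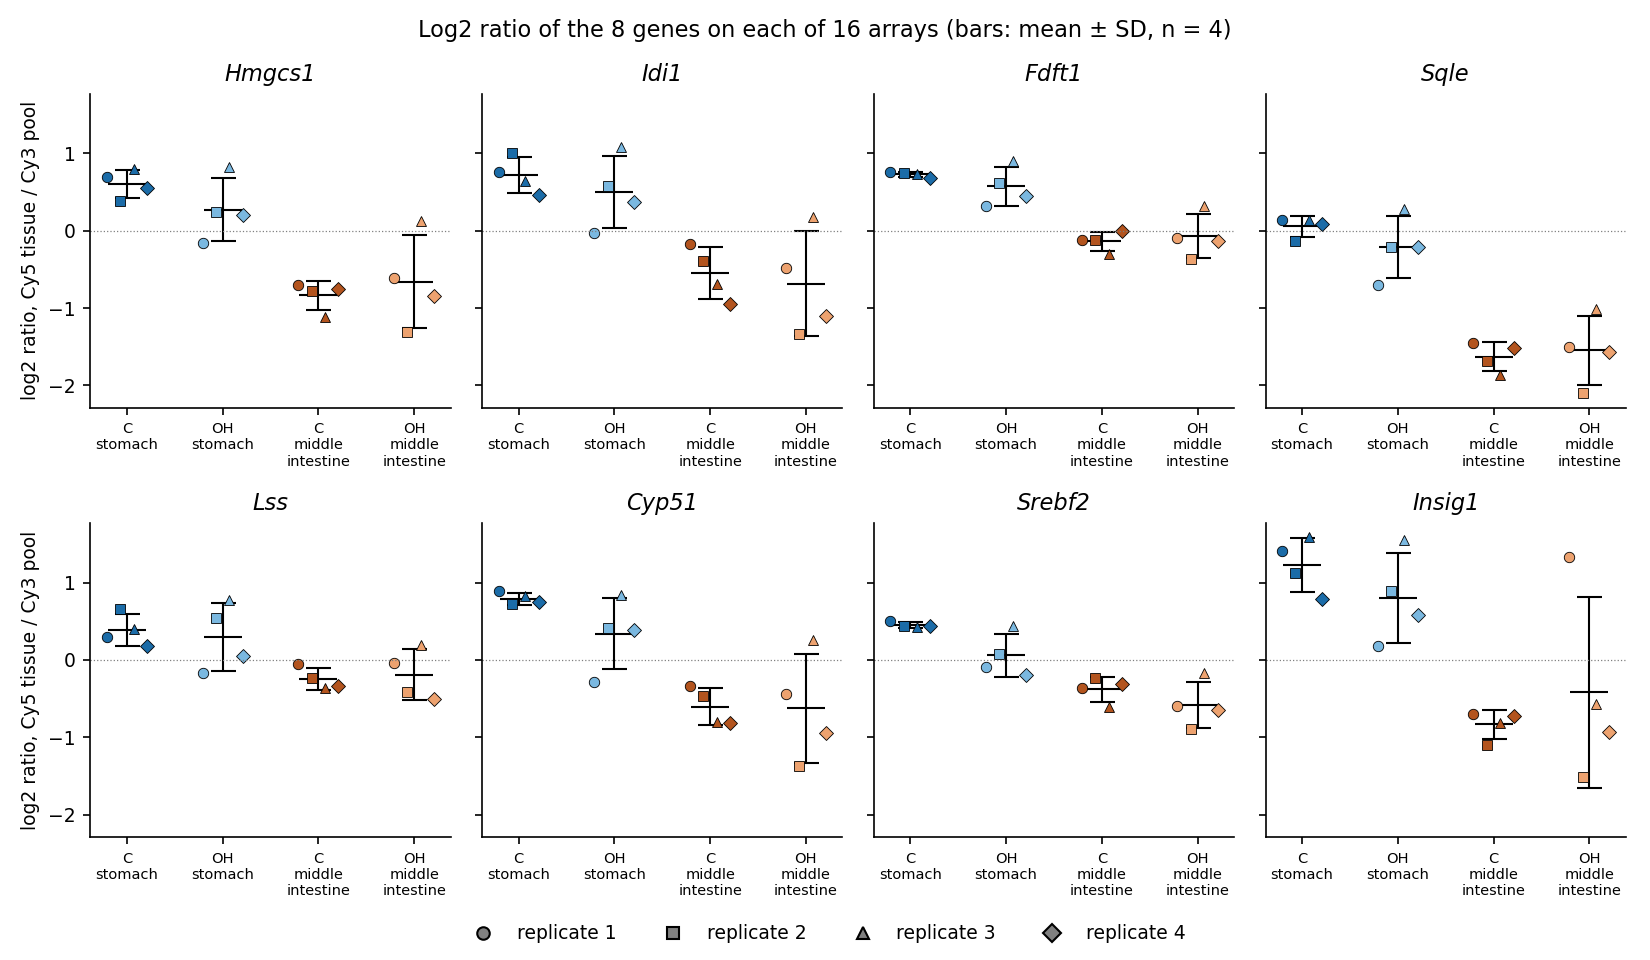
Log2 ratio of tissue (Cy5) to reference pool (Cy3) of the 8 genes on each of the 16 arrays, with 1 panel per gene, 1 symbol per replicate and bars for the mean and SD of 4 arrays. In every panel the C stomach arrays sit above the C middle intestine arrays, and the OH arrays are spread more widely than the C arrays in both tissues.

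Among the early enzymes, Hmgcs1 had log2 ratios of 0.70, 0.38, 0.80 and 0.55 on C stomach replicates 1 to 4 and of -0.70, -0.78, -1.12 and -0.75 on C middle intestine replicates 1 to 4. Its difference was 1.44 ± 0.26 (SE), a 2.72-fold higher level in stomach (adjusted p = 0.00040). Idi1 had 0.76, 1.01, 0.64 and 0.46 in C stomach and -0.18, -0.39, -0.70 and -0.94 in C middle intestine. The intestinal arrays of Idi1 were the more spread, and the difference was 1.27 ± 0.30 (SE; adjusted p = 0.0036).

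The squalene enzymes differed in the size of the gap. Sqle had 0.14, -0.14, 0.14 and 0.08 in C stomach and -1.45, -1.68, -1.87 and -1.52 in C middle intestine, so that its stomach was near the level of the pool and its intestine well below it. The difference was 1.69 ± 0.22 (SE), or 3.22-fold, with the smallest adjusted p of the 8 genes (2.4e-05). Fdft1 had 0.76, 0.74, 0.73 and 0.68 in C stomach, a spread of 0.034 (SD, n = 4), and -0.13, -0.12, -0.30 and -0.00034 in C middle intestine. Its difference was 0.87 ± 0.15 (SE), or 1.82-fold (adjusted p = 0.00027).

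Of the enzymes that form and trim lanosterol, Cyp51 had 0.89, 0.72, 0.82 and 0.74 in C stomach and -0.34, -0.47, -0.80 and -0.81 in C middle intestine. The difference of Cyp51 was 1.40 ± 0.29 (SE), or 2.63-fold (adjusted p = 0.0014). Lss, the neighbouring step, showed the smallest gap, with 0.30, 0.66, 0.41 and 0.18 in C stomach and -0.055, -0.23, -0.36 and -0.33 in C middle intestine. The difference of Lss was 0.63 ± 0.20 (SE), or 1.55-fold (adjusted p = 0.022). Without C stomach replicate 2 the difference of Lss was 0.54 and no longer passed (adjusted p = 0.064), while the other 7 genes still did. That array was the lowest of its group for striated muscle genes and the highest for Lss.

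Both control genes followed the same direction. Srebf2 had 0.51, 0.44, 0.42 and 0.44 in C stomach and -0.36, -0.24, -0.61 and -0.31 in C middle intestine, a difference of 0.83 ± 0.16 (SE), or 1.78-fold (adjusted p = 0.00068). Insig1 had 1.40, 1.12, 1.59 and 0.79 in C stomach and -0.70, -1.10, -0.82 and -0.72 in C middle intestine. Its difference of 2.06 ± 0.46 (SE), or 4.16-fold, was the largest of the 8 (adjusted p = 0.0023). In Cy5 alone, without the reference, the 8 differences ran from 0.59 to 2.44, and in Cy3, where the same pool was on every array, from -0.11 to 0.38.

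The same comparison in OH rats gave the same direction for all 8 genes, with log2 differences from 0.49 for Lss to 1.34 for Sqle. Of the 8, 7 passed, the exception being Lss (0.49, 95% interval 0.053 to 0.93, adjusted p = 0.073), where 19.2% of all probes were called higher in stomach. The levels of Sqle were -0.70, -0.21, 0.28 and -0.22 on OH stomach replicates 1 to 4 and -1.51, -2.10, -1.01 and -1.57 on OH middle intestine replicates 1 to 4. Sqle was the only gene whose OH groups did not overlap, and its difference was 1.34 ± 0.22 (SE; adjusted p = 0.00022). This was so for 1 of the 8 genes, where it was the case for 17.6% of all probes. The call of Insig1 was marginal (1.22 ± 0.46, SE, adjusted p = 0.049) and was lost in 14 of the 16 fits that left out 1 array, with an adjusted p of up to 0.15; it held without OH stomach replicate 1 and without OH middle intestine replicate 1. When 1 array was left out, 5 to 8 of the 8 genes passed, 6 of them without OH stomach replicate 2 and likewise without OH middle intestine replicate 4. The call of Cyp51 was lost in 2 of these fits (adjusted p of up to 0.053). With only the 8 OH arrays in the fit, 4 of the 8 genes passed, Hmgcs1, Cyp51 and Insig1 having adjusted p of 0.054, 0.076 and 0.14.

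**Figure D2:**
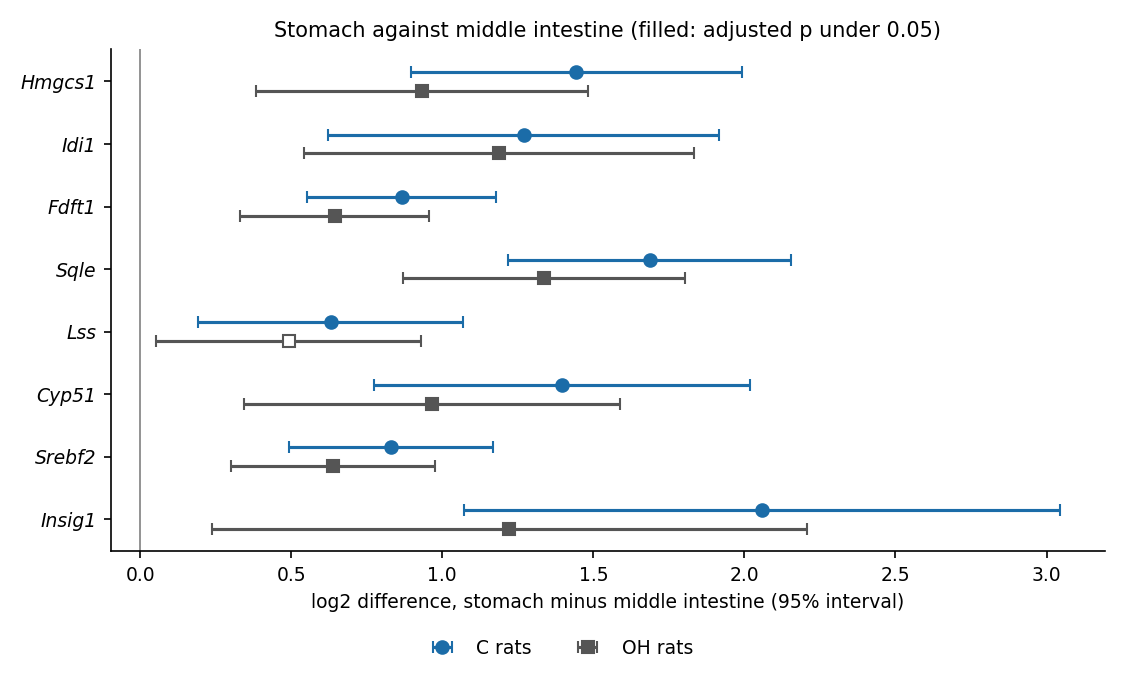
Log2 difference between stomach and middle intestine of each gene with its 95% interval, in C rats (circles) and OH rats (squares), filled where the adjusted p was under 0.05. All 16 differences lie above 0, and that of Lss in OH rats is the 1 open symbol.

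The other genes of the pathway were followed in 4 lists. Of 14 other enzymes of cholesterol synthesis on the array (16 listed), 10 were higher in C stomach than in C middle intestine and none lower, with a median log2 difference of 0.74, and in OH rats 8 were higher and none lower, where 22.3% and 19.1% of all probes were called lower in C and OH stomach. In OH rats the count was 5 to 10 when 1 array was left out, 5 of them without OH middle intestine replicate 4 and 10 without OH stomach replicate 1. Tm7sf2 (1.61 ± 0.28, SE) and Sc5d (1.44 ± 0.27), which encode late enzymes between lanosterol and cholesterol, passed in both comparisons. The call of Sc5d between the OH tissues (0.90) was lost in 4 of the alternatives, among them without OH stomach replicate 3 (0.69, adjusted p = 0.053) and without OH middle intestine replicate 4 (0.73, adjusted p = 0.055), with an adjusted p of up to 0.098. Of 5 other genes of SREBP control, 2 were higher and 1 lower in C stomach. The 1 lower gene was Srebf1, which encodes the factor that leans towards fatty acid synthesis (-0.67 ± 0.19, SE, adjusted p = 0.011, and -0.70 in OH rats), a sign opposite to that of Srebf2. With the median raw Cy5 signal as a covariate Srebf1 no longer passed in either comparison (-0.44 and -0.47, adjusted p = 0.16 in both). Mbtps1, which encodes a protease that activates these factors, was higher in stomach (0.63 ± 0.12, SE).

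Genes of cholesterol uptake, export and storage went both ways. Of 14 kept (15 listed), 5 were higher and 6 lower in C stomach, with log2 differences from -5.60 for Abcg5 to 3.07 for Soat1, and 3 were higher and 7 lower in OH stomach. Npc1l1, which takes up cholesterol at the brush border of enterocytes, was lower in stomach by far (-5.07 ± 0.25, SE, adjusted p = 1.1e-09). Abcg5, which encodes a part of the sterol export pump of enterocytes, was lower too (-5.60 ± 0.61, SE), and its probe was well above background on 1 of 4 arrays in each stomach group. With normexp background correction and loess its difference was -2.30. Soat1, which encodes a cholesterol-esterifying enzyme, was higher in stomach (3.07 ± 0.40, SE) and was well above background on 3 of 4 C and 2 of 4 OH arrays of the intestine. Its difference was 1.35 with normexp and loess, and both genes still passed. Of 9 genes of fatty acid synthesis, 6 were higher in C stomach and 3 in OH stomach, none lower, and of these Scd, a desaturase (2.19 ± 0.35, SE), and Acly, which supplies acetyl-CoA (0.66 ± 0.17, SE), passed in both.

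**Figure D3:**
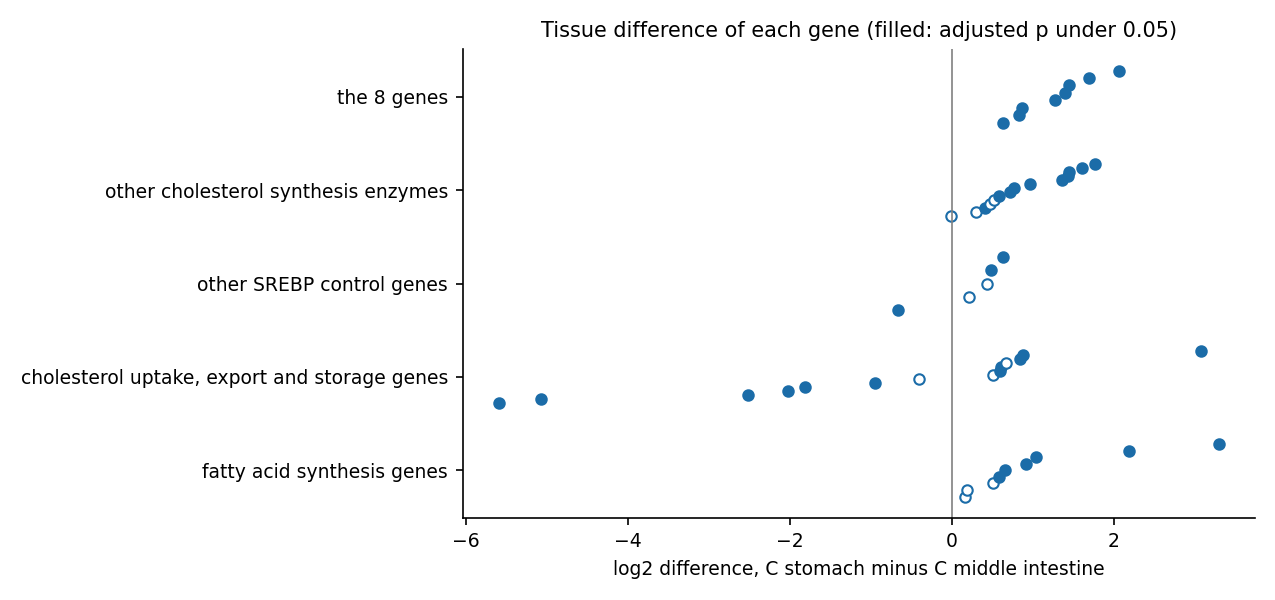
Log2 difference between C stomach and C middle intestine of the 8 genes and of the genes of 4 other lists, 1 point per gene, filled where the adjusted p was under 0.05. The 8 genes and all but 1 of the other synthesis enzymes lie above 0, while uptake, export and storage genes range from -5.60 for Abcg5 to 3.07 for Soat1, which were -2.30 and 1.35 with normexp and loess.

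The question of the study was what obestatin does to these tissues. In stomach none of the 8 genes passed the test between OH and C (limma, smallest adjusted p 0.42), where 0% of all probes were called. Without C stomach replicate 2 there were 446 probes called, and at most 2 without any other array. All 8 were lower in OH, by log2 differences from -0.45 for Cyp51 to -0.086 for Lss, and 48.8% of all probes were below 0. Since the 8 genes moved together from array to array, their shared direction is not 8 separate observations. Srebf2 alone had an unadjusted p under 0.05 (0.026), where 10.6% of all probes did. By Tukey's HSD, the test that the methods name, none of the 8 genes passed, where 709 of all 21174 probes did.

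Srebf2 had 0.51, 0.44, 0.42 and 0.44 in C stomach, as above, and -0.087, 0.081, 0.44 and -0.19 in OH stomach. The highest OH array lay among the C arrays and the other 3 lay below them, giving -0.39 ± 0.16 (SE, adjusted p = 0.42). Cyp51 had -0.28, 0.42, 0.83 and 0.39 in OH stomach, against 0.72 to 0.89 in C, and a difference of -0.45 (95% interval -1.07 to 0.17). Hmgcs1 had -0.17, 0.24, 0.82 and 0.20 in OH stomach, which overlapped its C arrays at 0.38 to 0.80, and a difference of -0.33 (interval -0.88 to 0.21). For Sqle, Insig1, Idi1 and Fdft1 the differences were -0.27, -0.42, -0.22 and -0.16, each with an interval across 0. Lss turned to 0.071 without OH stomach replicate 1 and to 0.0045 without C stomach replicate 2. Striated muscle genes, which were at 3.17 to 3.80 on 3 C stomach arrays, were at -0.47 to 0.98 in OH stomach, and squamous forestomach genes (8 of 10 listed) were at 0.33 to 2.14 in C and 0.35 to 1.31 in OH. Smooth muscle genes (7 kept) were at -2.57 to -1.49 in C and at -2.57 to 0.91 in OH. Their part in the differences was not tested.

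In middle intestine 5 of the 8 genes were higher and 3 lower in OH than in C, and none passed the test (smallest adjusted p 0.75), where 0.368% of all probes were called. These 78 probes became 13 to 88 when 1 array was left out, the fewest without C middle intestine replicate 3. None of the 8 genes had an unadjusted p under 0.05 either, where 10.5% of all probes did. By Tukey's HSD none of the 8 passed, where 936 of all 21174 probes did. The differences ran from -0.20 for Srebf2 to 0.41 for Insig1. Hmgcs1 had -0.61, -1.31, 0.12 and -0.85 on OH middle intestine replicates 1 to 4, on both sides of its C arrays at -1.12 to -0.70, and its difference was 0.18 (interval -0.37 to 0.73). The pattern was alike for Cyp51, with -0.45, -1.37, 0.26 and -0.95 in OH against -0.81 to -0.34 in C (difference -0.021, interval -0.64 to 0.60). The signs depended on single arrays. Without OH middle intestine replicate 3 the differences of Hmgcs1, Fdft1, Sqle and Lss fell below 0 (-0.086, -0.066, -0.098 and -0.075). Without replicate 2 those of Idi1 and Cyp51 rose above 0 (0.082 and 0.23), their highest values under any alternative. Over 31 alternatives the sign turned in 2 for Idi1 and in 5 for Cyp51.

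The higher mean of Insig1 in OH middle intestine came from 1 array. Its log2 ratio was 1.33 on replicate 1 and -1.51, -0.57 and -0.93 on replicates 2 to 4, against -1.10 to -0.70 in C. Both spots of the probe on that array gave the high value, 1.35 and 1.32, and on that array the other 7 genes were within the range of the other OH arrays of the intestine. Without that array the difference between OH and C turned to -0.17 and that between OH stomach and OH middle intestine rose from 1.22 to 1.81.

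**Figure D4:**
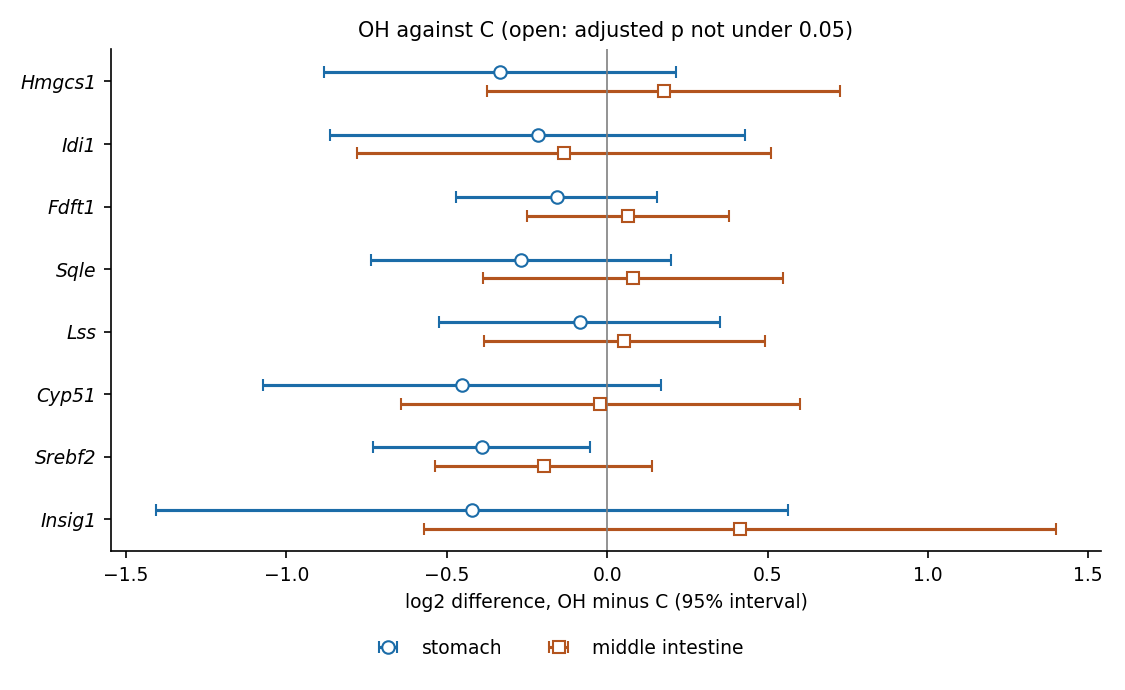
Log2 difference between OH and C of each gene with its 95% interval, in stomach (circles) and middle intestine (squares); open symbols mark an adjusted p not under 0.05. All 8 stomach values lie below 0 and the intestinal values lie from -0.20 to 0.41, and no gene passed in either tissue.

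The effect of OH was compared between the tissues by the interaction term. All 8 differences of effects, stomach minus middle intestine, were below 0, from -0.84 for Insig1 to -0.082 for Idi1, and none passed (smallest adjusted p 0.89), where 0% of all probes were called and 49% were below 0. Without C stomach replicate 2 there were 159 probes called. None had an unadjusted p under 0.05, where 5.85% of all probes did. The intervals were wide, from -1.29 to 0.27 for Hmgcs1 and from -2.23 to 0.56 for Insig1. The comparisons of tissues and of treatments share groups, so that a low OH stomach mean enters the treatment difference, the interaction and the OH tissue difference alike.

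What set the OH arrays apart was their spread. The SD of each of the 8 genes over 4 arrays was higher in OH than in C in both tissues, by a factor of 1.66 to 7.32 (median 2.63) in the stomach and of 1.81 to 6.78 (median 2.38) in the intestine. The SD was higher in OH for 63.7% of all probes in the stomach and for 48.4% in the intestine, with median ratios of 1.26 and 0.98. Fdft1, Srebf2 and Cyp51 had the largest ratios in stomach (7.32, 7.13 and 5.93), where their C arrays were tight, and Insig1 in middle intestine (6.78), where 1 array stood apart. No test was made of this description, the 8 genes are not independent, and slide, scan day and litter go with treatment.

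The wider spread of OH was also seen in Cy5 alone, for 8 of 8 genes in each tissue (median ratios 2.56 and 2.52). Of all probes, 62.6% in stomach and 46.1% in middle intestine had it in Cy5. In Cy3 alone it was seen for 4 of 8 genes in stomach and 7 of 8 in middle intestine (medians 1.21 and 1.69). Of all probes, 45.8% and 36.8% had it in Cy3 (medians 0.93 and 0.79). When any 1 array was left out, the wider spread of the log2 ratio held for 8 of 8 genes in stomach and for 7 or 8 in middle intestine. The exception was Srebf2 without OH middle intestine replicate 3. The median ratio depended on single C arrays, rising to 4.93 in stomach without C stomach replicate 2 (all probes 1.93) and to 3.89 in middle intestine without C middle intestine replicate 3. After scaling all arrays to the same spread, Insig1 in stomach had a ratio of 0.93 and the medians were 2.03 and 2.09.

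The spread was shared by the genes. On OH stomach replicate 3 all 8 genes had their highest value of the group, and on replicate 1, 7 of the 8 had their lowest. On OH middle intestine replicate 3, 7 of 8 had their highest, and on replicate 2, 7 of 8 their lowest. The mean of the 8 genes was -0.12, 0.39, 0.84 and 0.20 on OH stomach replicates 1 to 4 and -0.31, -1.16, -0.085 and -0.84 on OH middle intestine replicates 1 to 4. In C rats it stayed between 0.49 and 0.69 in the stomach and between -0.82 and -0.49 in the intestine.

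**Figure D5:**
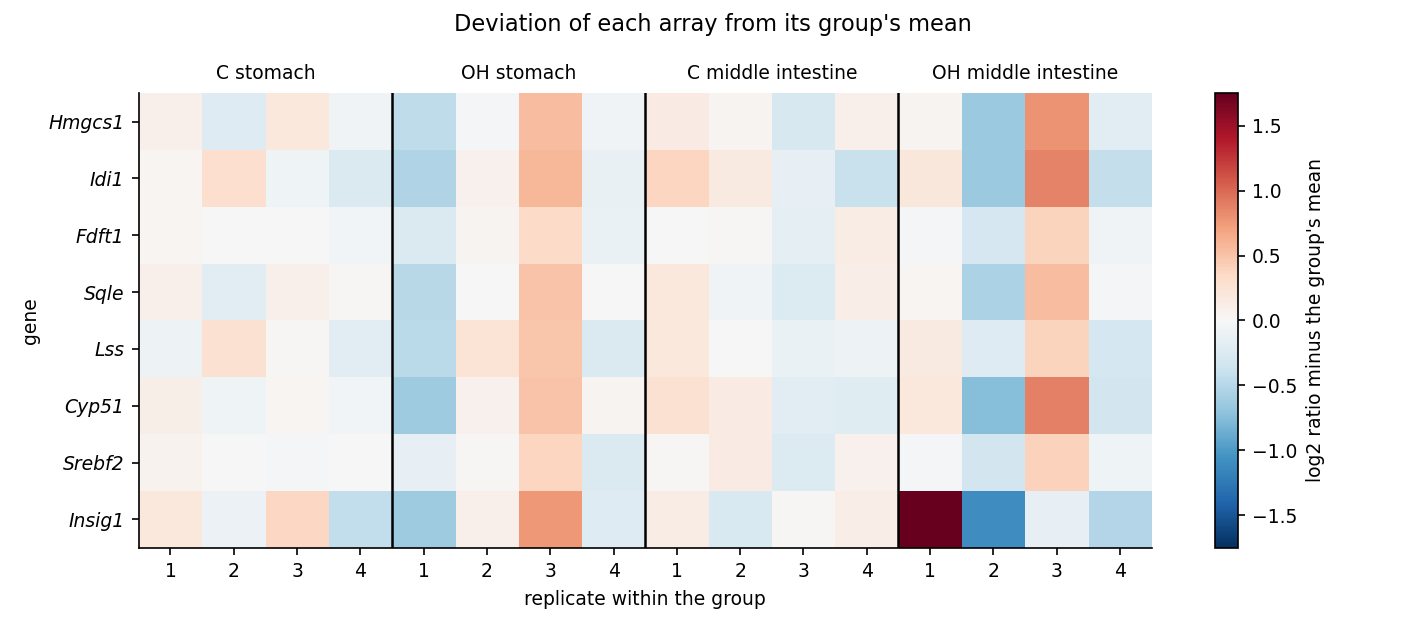
Log2 ratio of each gene on each array minus the mean of its group, with genes in rows, the 16 arrays in columns by group, and red for above and blue for below the mean. The columns of OH stomach replicates 1 and 3 and of OH middle intestine replicates 2 and 3 are of nearly 1 colour across genes, apart from Insig1 on the last of these arrays, and Insig1 on OH middle intestine replicate 1 is the darkest cell.

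With group means taken out, the deviation of each gene was set against the mean deviation of the other 7 over the 16 arrays, as a description. Pearson's r was 0.53 for Insig1 and 0.83 to 0.93 for the other genes (median 0.88, median Spearman's rho 0.82). Over the 8 OH arrays the median r was 0.92 and over the 8 C arrays 0.48, and without the 2 arrays farthest from the median, OH middle intestine replicates 2 and 3, it was 0.80 over 14 arrays. Among the 28 pairs r ran from 0.37 for Insig1 with Srebf2 to 0.97 for Hmgcs1 with Sqle. Arrays share labelling and scan, which enter every gene of an array.

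Of all 21174 probes, 13.6% had an r over 0.5 with the mean deviation of the 8 genes. The closest were Mvd (0.95), the decarboxylase that yields the isoprenoid unit, and, among the 5 closest, Stk19 (0.92) and Msmo1 (0.91), an enzyme that acts after Cyp51. Of the 14 other synthesis enzymes 7 had an r over 0.5, of the 5 other SREBP control genes 1, Scap (0.81), which escorts the factors, of the 14 uptake, export and storage genes 2, and of the 9 fatty acid genes 4. Some genes of sterol export deviated the other way, with Abcg5 at -0.63 and Abca1, another exporter, at -0.65, and so did Mylip, which encodes a ubiquitin ligase, at -0.70. A further exporter of the list was at -0.16, and the lowest r of all probes was -0.90. The median r of the uptake, export and storage genes was -0.24 and that of all probes 0.078. The share of all probes with an r as low as these was not counted. The probe of Abcg5 was well above background on 1 of 4 arrays in each stomach group. Abca1, Mylip and Scap were named after their values were seen.

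Other measures of the arrays moved with these deviations. In OH stomach the glandular stomach genes were at 2.25, 3.08, 3.16 and 2.59 on replicates 1 to 4, the same order of arrays as for the mean of the 8 genes, while in C stomach they were at 2.81 to 3.32. Smooth muscle genes were at 0.91, -1.47, -2.57 and 0.078 on the same OH stomach arrays, in the reverse order. On OH middle intestine replicates 1 to 4 they were at -0.74, -1.09, -0.25 and -0.40. There the lowest and the highest fell on the same replicates as for the 8 genes. In OH middle intestine the enterocyte genes were at 0.39, 1.03, -0.89 and -0.046, highest on replicate 2, where the 8 genes were lowest, and lowest on replicate 3, where they were highest. The median raw Cy5 signal was 301, 266, 235 and 328 in OH stomach and 213, 272, 163 and 205 in OH middle intestine. In both it was lowest on replicate 3, where the mean of the 8 genes was highest. It was highest on replicate 2 in OH middle intestine, where that mean was lowest, and on replicate 4 in OH stomach, where it was not. With group means taken out, its log2 had an r of -0.71 with the mean of the 8 genes over 16 arrays. The same r was 0.70 for glandular stomach, -0.57 for enterocyte and -0.36 for smooth muscle genes. For the other marker lists it was -0.12 to 0.41. With the median raw Cy5 signal as a covariate in the fit, 8 of the 8 genes passed between C stomach and C middle intestine. Between OH stomach and OH middle intestine 7 of 8 passed, and none between OH and C. The part of tissue make-up and of signal in the shared deviations was not tested.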

How the data were processed

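For each of 16 Agilent SurePrint G3 Rat GE 8x60K arrays the authors deposited scanner output holding intensity values of both channels. The processed intensities had been background-subtracted and Lowess-normalized by Agilent Feature Extraction, version 10.7.3.1 in the submitters' processing notes and 10.10.1.1 in the headers. The table of log10 ratios that the authors deposited served as an alternative.

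Here the log2 ratio of processed Cy5 to Cy3 was averaged over spots of a probe, leaving out outlier spots. Probes were kept if Cy5 was well above background throughout at least 1 group of 4 arrays and each group had 3 or more values. All 16 ratios were fitted in limma 3.58.1 (R 4.3.3, lmFit and eBayes, 1 mean per group, no block), adjusted by Benjamini-Hochberg over 21174 probes with a threshold of 0.05. The script was tested on simulated ratios. Where a gene had several probes, that with the highest mean Cy5 was used. Probe positions are those of the array design (rn4), and exons or UTRs at them were not analysed here. The number of arrays limits the precision. The alternatives are listed at the end.

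Named beside the 8 genes were, per list, up to 3 genes with the largest tissue difference in C among those past the threshold in both tissue comparisons, and genes among the 5 whose deviations were most like theirs; genes that these rules cover are in part not reported here. Genes, lists and tests were chosen with earlier results of these data known.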

Additional observations from a re-analysis of the deposited data

Results flagged for a closer look

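With Dixon's test at the 95% level, 4 of 76 sets of 4 arrays had a lone array, where chance gives about 3.8, and none of these was a set of values of the 8 cholesterol genes or of their mean. In C stomach the striated muscle genes (gap over range 0.874) were at -1.19 on replicate 2 and at 3.17 to 3.80 on the other arrays, and the adipocyte genes, 4 of 6 listed, (0.930) were at -0.0074 on the same array and at 1.00 to 1.08 on the others. In OH stomach the adipocyte genes (0.852) were at -1.55 on replicate 2 and at 0.51 to 0.86 on the others. In OH middle intestine the pancreas genes (0.860) were at -1.54 on replicate 4 and at -3.66 to -3.36 on the others.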

How the results depend on the processing

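Under the alternatives the number of the 8 genes past the threshold stayed at 7 or 8 between C stomach and C middle intestine and at 0 between OH and C in middle intestine and for the interaction. Between OH stomach and OH middle intestine it was 4 with only the arrays of those groups in the fit, which leaves fewer arrays to estimate the spread, and 5 to 8 when 1 array was left out. Between OH and C in stomach it was 1 by unadjusted p and 0 otherwise. With the replicate number as a block the count was 8 between the tissues of C rats, 7 between those of OH rats and 0 in the other comparisons. This block also joined same-numbered arrays of C and OH, which came from different rats, so it did not test pairing within a rat. The labels do not tie the numbers to rats. Between the tissues of a treatment, where a rat could be shared, deviations of same-numbered arrays correlated from -0.12 to 0.32. They were above 0 in 7 of 8 pairs, and 5 of the 8 correlated best with their own number, a hint from the data. The wording of the methods can be read either way, so the tissue comparisons may hold arrays of the same rats. All differences of the 8 genes between stomach and middle intestine kept their sign.

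Leaving out 1 array turned the sign of small differences that had not passed. Between OH and C they ranged from -0.25 to 0.071 for Lss in stomach, and in middle intestine from -0.086 to 0.39 for Hmgcs1, -0.42 to 0.082 for Idi1, -0.066 to 0.16 for Fdft1, -0.098 to 0.27 for Sqle, -0.075 to 0.16 for Lss, -0.32 to 0.23 for Cyp51 and -0.17 to 0.78 for Insig1. The interaction ranged from -0.30 to 0.21 for Idi1 and from -0.30 to 0.019 for Lss. With the median raw Cy5 signal as a covariate, an alternative chosen after seeing the data like that of scaling arrays to the same spread, Cyp51 in middle intestine was at 0.028. Over all probes, the 78 calls between OH and C in middle intestine became 1378 without the filter on dim probes, 936 by ANOVA and Tukey's HSD, 249 in Cy5 alone, 145 with the covariate, 40 with the block, 19 with gene means and 1 with only those groups, and the 0 in stomach became 639, 709, 2, 3, 0, 1 and 0, and 218 after scaling. When 1 array was left out, the counts ran from 13 to 88 in middle intestine, more than 1.5 times below 78 in 14 of 16 fits, and from 0 to 446 in stomach. Aquantile scaling left the ratios as they were.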
